A study of Mus musculus with 13 samples.

Results

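The step from the DN3 to the DN4 stage of thymocyte development was followed in control mice by RNA-seq, through 3 libraries of sorted DN3 cells and 4 libraries of sorted DN4 cells. These libraries were chosen by their labels and are 7 of the 13 in the study. All 7 came from Wt;Lck-Cre+ mice of the C57BL/6 strain, 6 weeks old, in which Cre recombinase is driven by the promoter of Lck, a kinase gene used in T cell precursors, so that the controls carried the recombinase too. DN3 cells were CD44low and CD25high and DN4 cells CD44low and CD25low, which makes CD25 itself a sorting criterion. A gate against other blood lineages is not given for the RNA samples in the sources used here. Each library stood for 1 mouse by its name. WT05, WT46 and WT48 gave a library of each stage and WT40 gave DN4 cells only. Another 6 libraries, 3 of each stage, came from Opa1fl/fl;Lck-Cre+ mice (KO-labelled below) and are set beside the Wt libraries in a single paragraph.

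Double negative (DN) thymocytes carry neither CD4 nor CD8. At the DN3 stage they receive NOTCH signals from the thymic stroma and rearrange the gene of the T cell receptor β chain. A β chain that can be expressed pairs with the invariant pre-TCRα chain, and signaling of this pre-TCR carries cells through beta-selection. They then lose CD25, divide, and pass through DN4 and an immature single positive (ISP) stage to become double positive (DP) cells, in which the α chain gene is rearranged.

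The libraries held 5926848 to 12211338 counts on genes, and 12691 of the 47937 genes in the table had enough counts to be tested. Levels are in CPM, the count of a gene divided by the TMM-scaled library size, and their size is compared between libraries and not, outside of a ranking named as such, between genes. The DN3 library of WT05 stood apart. It was the smallest, 34.4% of its counts fell on ribosomal RNA-like genes against 0.350% to 1.45% in the other 6, and 3886049 counts remained outside them. Its mtDNA-encoded share was 4.60% of the remaining counts against 1.30% to 1.90%, and counts without this library are given for the lists that changed most. Among the DN4 libraries, those of WT48 and WT05 had the highest levels of B cell markers and those of WT40 and WT46 the lowest. The former group of mice had Xist counts and the latter had counts of the Y-linked gene Ddx3y, so that sex and B cell marker level cannot be told apart.

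From DN3 to DN4, 2903 of 12691 genes (22.9%) passed an adjusted p of 0.05 in edgeR's quasi-likelihood test, 1706 of them higher in DN4 (13.4% of genes tested) and 1197 lower (9.43%). The shares of 13.4% and 9.43% are those to set beside each count of list members below. All adjusted p-values below come from this test with Benjamini-Hochberg adjustment over the 12691 genes unless another tool is named. The median log2 fold change was 1.67 among the former and -0.91 among the latter, and a change of 4 or more on the log2 scale was reached by 380 genes in the upward and 41 in the downward direction. Of the higher genes, 272 had no more than 3 counts in any DN3 library, and of the lower genes 17 had no more than 3 in any DN4 library. With at least 10 counts required in every library, 1074 genes were higher and 998 lower. In each mouse that gave both stages the direction was the same for 1704 of the 1706 higher and 1193 of the 1197 lower genes. These genes were called from the same libraries, so this agreement is not a separate test. The libraries of the stages did not overlap for 2877 of the 2903 called genes, against 4486 (35.3%) of all genes tested. With library totals in place of TMM scaling, the median of all genes moved from -0.03 to 0.16 and the share of higher genes among the calls from 58.8% to 77.8%, with 1386 higher and 396 lower.

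**Figure D1:**
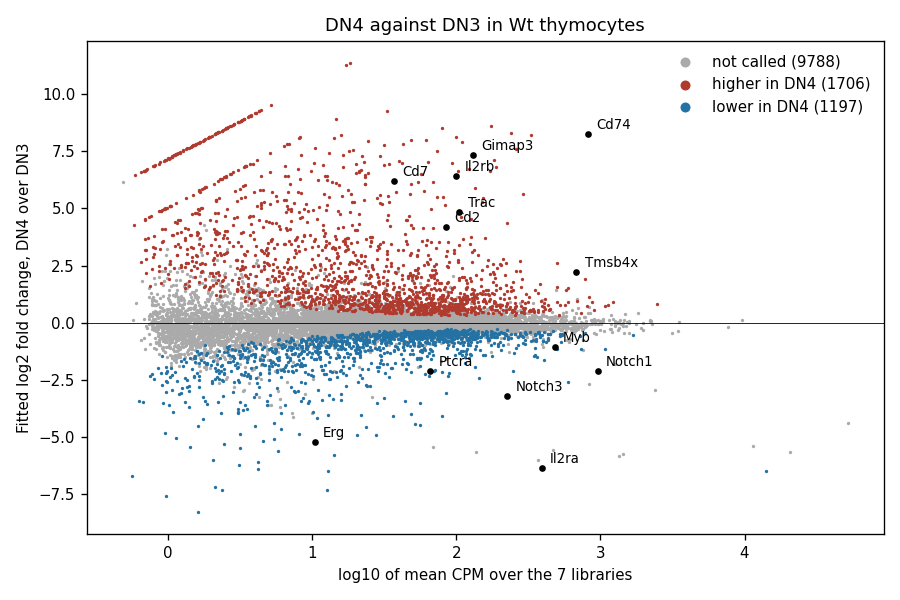
Each point is 1 of the 12691 genes tested, placed by the log10 of its mean CPM over the 7 Wt libraries (x) and its fitted log2 fold change of DN4 over DN3 (y). Red points are the 1706 higher and blue points the 1197 lower genes, and the slanted rows of red points at the upper left are genes with 0 or very few counts in every DN3 library, whose fitted values depend on the prior count.

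The genes that mark the stages followed the labels. Library values are listed as WT05, WT46 and WT48 for DN3 and as WT05, WT40, WT46 and WT48 for DN4. Il2ra, which encodes CD25, had 701, 764 and 1240 CPM in DN3 and 9.95, 9.67, 9.27 and 14.3 CPM in DN4. The stages lay far apart, but sorting on CD25 fixed this difference, so it is a check of the sort. Notch3, a NOTCH receptor gene of early thymocytes (chromosome 17 from 32120820 to 32166852, minus strand), had 466, 458 and 451 CPM in DN3 and 51.9, 50.2, 44.4 and 53.0 CPM in DN4. It was even within each stage and fell by 3.20 on the log2 scale (SE 0.11, adjusted p = 8.74e-06 in edgeR), the lowest adjusted p among the genes named here.

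In the opposite direction, Cd7 and Cd2 rose. Cd7, which encodes a surface protein of T and NK cells, had 1.13, 0.937 and 0.634 CPM in DN3 and 79.4, 63.1, 54.2 and 59.5 CPM in DN4. Cd2, the gene of an adhesion receptor of lymphocytes, had 6.77, 6.47 and 10.1 CPM in DN3 and 148, 144, 150 and 128 CPM in DN4. Their log2 fold changes were 6.21 (SE 0.25) and 4.17 (SE 0.19), with an adjusted p of 1.64e-05 each in edgeR. All 4 marker genes separated the stages in every library, WT05 included. In sorted populations measured in bulk, fewer cells of a type and less RNA per cell cannot be told apart, here or in any result that follows.

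**Figure D2:**
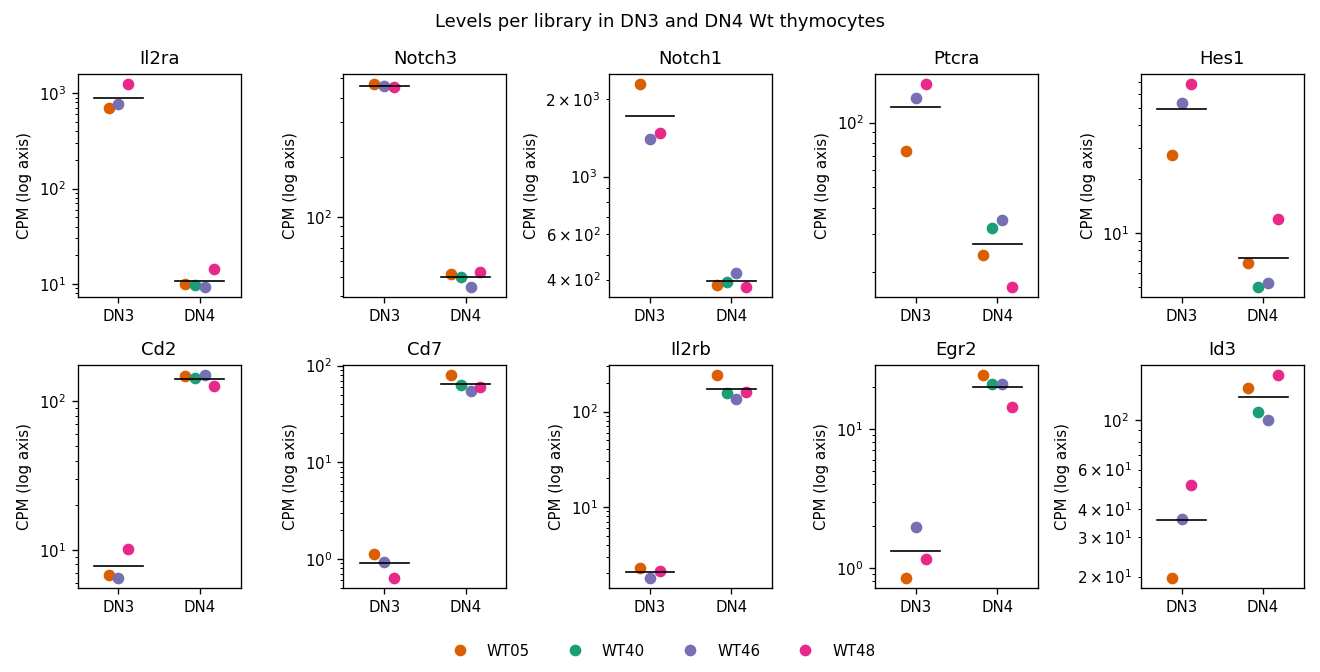
Each panel plots the CPM of a gene (log axis, with its own range) in the 3 DN3 and 4 DN4 libraries of Wt mice, colored by mouse, and the bar is the mean. Il2ra, Notch3, Notch1, Ptcra and Hes1 were lower in every DN4 library than in any DN3 library, and Cd2, Cd7, Il2rb, Egr2 and Id3 were higher in every one.

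Ptcra, which encodes the pre-TCRα chain, fell with Notch3 and Il2ra. The RefSeq windows around the annotated starts of these genes on GRCm38.p6, from 250 bases before to 50 bases after the start, are shown because all 3 fell across beta-selection and Il2ra and Ptcra are often cited as NOTCH targets. Capitals mark the E-box letters CAGGTG or CAGCTG, which E proteins can bind, and the letters TGGGAA, the core that the NOTCH partner RBPJ can bind, each searched on both strands. The windows lie at chr2:11642542-11642841 on the plus strand for Il2ra, chr17:32166841-32167140 on the minus strand for Notch3 and chr17:46763663-46763962 on the minus strand for Ptcra.
Il2ra: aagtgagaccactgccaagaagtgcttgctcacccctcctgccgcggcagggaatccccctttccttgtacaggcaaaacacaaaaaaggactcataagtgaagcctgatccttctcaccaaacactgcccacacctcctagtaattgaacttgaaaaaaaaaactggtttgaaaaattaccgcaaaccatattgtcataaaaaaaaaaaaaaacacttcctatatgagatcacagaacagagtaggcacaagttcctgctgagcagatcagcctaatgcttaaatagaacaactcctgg
Notch3: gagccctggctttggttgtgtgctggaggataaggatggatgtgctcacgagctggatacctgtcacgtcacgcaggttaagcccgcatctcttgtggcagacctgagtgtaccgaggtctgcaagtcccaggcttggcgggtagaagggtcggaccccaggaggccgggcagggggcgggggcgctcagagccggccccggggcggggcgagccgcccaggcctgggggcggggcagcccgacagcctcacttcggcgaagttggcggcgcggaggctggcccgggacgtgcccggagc
Ptcra: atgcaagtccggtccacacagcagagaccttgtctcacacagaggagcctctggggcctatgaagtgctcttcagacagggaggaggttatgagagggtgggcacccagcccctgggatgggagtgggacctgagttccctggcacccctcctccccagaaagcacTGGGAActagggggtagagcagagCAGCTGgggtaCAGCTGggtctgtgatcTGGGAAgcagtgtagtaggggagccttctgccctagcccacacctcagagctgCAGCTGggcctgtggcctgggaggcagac
The Ptcra window held 3 E-boxes and 2 TGGGAA cores, and those of Il2ra and Notch3 held neither, which says only that these letters are not in these 300 bases. Of 27025 RefSeq promoters of this length 32.6% held an E-box and 25.5% the core, so that either alone is common, and the shares were not compared between gene groups because only 72.3% to 78.3% of each group had an entry.

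Among genes of NOTCH signaling, Notch1, Notch3 and several targets fell. Notch1, the receptor needed for entry into the T lineage, had 2273, 1395 and 1470 CPM in DN3 and 381, 392, 426 and 374 CPM in DN4, a log2 fold change of -2.12 (SE 0.19, adjusted p = 2.33e-04 in edgeR). DN3 of WT05 was its highest library, and without it the value was -1.88. Of 12 genes of receptors and their processing tested, Notch1 and Notch3 fell and Lfng, a glycosyltransferase gene that modifies NOTCH, rose by 1.43 (SE 0.19, adjusted p = 0.00155 in edgeR). The other 9, among them Rbpj at -0.31 and Notch2 at 0.52, did not pass, and the median of the 12 was 0.17. Without DN3 of WT05 3 of the 12 rose.

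Among 9 NOTCH targets tested, 6 fell and 0 rose, with a median log2 fold change of -1.19 against -0.03 over all genes. Il2ra, whose fall the sort fixed, is among the 6. Leaving out DN3 of WT05, 5 of them fell. Hes1, a transcriptional repressor, had 27.1, 53.1 and 67.7 CPM in DN3 and 6.82, 4.97, 5.23 and 11.9 CPM in DN4, a fall of 2.79 on the log2 scale (SE 0.38, adjusted p = 0.00159 in edgeR). Ptcra had 73.4, 131 and 151 CPM in DN3 and 24.1, 32.1, 35.0 and 17.0 CPM in DN4, with a log2 fold change of -2.13 (SE 0.30, adjusted p = 0.00178 in edgeR). In both genes the DN3 library of WT05 was the lowest of its stage and still lay above every DN4 library. Nrarp, a feedback inhibitor, had a log2 fold change of -0.10 (adjusted p = 0.894 in edgeR), and Dtx1, a ubiquitin ligase gene, of -0.81 (adjusted p = 0.123 in edgeR). With the mouse as a block the adjusted p of Dtx1 was 0.0188.

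Of the 8 genes of pre-TCR and CD3 chains, Ptcra and Cd3g fell, Trac and Cd247 rose, and Cd3e (-0.19), Cd3d (0.09), Trbc1 (0.13) and Trbc2 (0.41) did not pass. The call of Cd3g was lost without DN4 of WT05 and WT48, with library totals and with the B cell marker share in the fit, where of this list only Ptcra fell. The call of Cd247, a gene overlapped by Pou2f1, was lost with the mouse as a block (adjusted p = 0.0664), with library totals (0.218), without DN4 of WT05 and WT48 (0.139) and with the B cell marker share in the fit (0.109), all in edgeR. In the V(D)J recombination list 2 of 12 genes fell, Dntt and Xrcc6, and 0 rose, against 9.43% and 13.4% of all genes. Dntt, the polymerase gene that adds bases at the joins, had 1160, 1908 and 1673 CPM in DN3 and 614, 917, 829 and 494 CPM in DN4, a log2 fold change of -1.15 (SE 0.25, adjusted p = 0.0134 in edgeR). The stages did not overlap, but its call was lost without DN3 of WT46 (adjusted p = 0.0544) or DN4 of WT05 (adjusted p = 0.0502), without DN4 of WT05 and WT48 (adjusted p = 0.0758), with the B cell marker share in the fit (adjusted p = 0.0649) and with library totals (adjusted p = 0.114, all edgeR), where 0 of the 12 genes fell. Rag1, a subunit of the recombinase, had 971, 763 and 648 CPM in DN3 and 401, 826, 490 and 239 CPM in DN4, so that the DN4 library of WT40 lay within the range of DN3. Its log2 fold change of -0.70 (SE 0.36) did not pass (adjusted p = 0.210 in edgeR), whereas with the mouse as a block, where WT40 has no DN3 partner and does not bear on the difference, it was -1.12 with an adjusted p of 0.0106. Without the DN4 library of WT40 it was -1.08 with an adjusted p of 0.0336 in edgeR. It was -0.27 (adjusted p = 0.612) without DN4 of WT05 and WT48, -0.09 (adjusted p = 0.857) with the B cell marker share in the fit and 0.50 (adjusted p = 0.376) in KO-labelled mice, all in edgeR. Rag2, which B230118H07Rik overlaps on the other strand, followed the same pattern, at -0.92 with an adjusted p of 0.0946 over all libraries, 0.00957 with the block and 0.0263 without DN4 of WT40 in edgeR. It was -0.47 (adjusted p = 0.321) without DN4 of WT05 and WT48, -0.36 (adjusted p = 0.428) with the marker share and -0.05 (adjusted p = 0.943) in KO-labelled mice in edgeR.

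Most of the genes that respond early to receptor signals rose. Of 23 tested, 18 rose and 0 fell, against 13.4% and 9.43% of all genes, with a median log2 fold change of 1.79. Without DN3 of WT05 the count was again 18, and without DN4 of WT05 and WT48 it was 17. Egr1, a zinc finger transcription factor gene induced by ERK signals, had 14.4, 15.4 and 17.1 CPM in DN3 and 71.8, 95.3, 92.2 and 73.0 CPM in DN4, a log2 fold change of 2.40 (SE 0.16, adjusted p = 6.96e-05 in edgeR). Its relative Egr2 had 0.846, 1.96 and 1.16 CPM in DN3 and between 14.4 (WT48) and 24.3 (WT05) CPM in DN4, with a log2 fold change of 3.81 (SE 0.32, adjusted p = 1.73e-04 in edgeR). The third member, Egr3, rose by 5.07, from 0.341 to 1.13 CPM in DN3 to 10.7 to 35.0 CPM in DN4, with WT48 the highest.

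The nuclear receptors Nr4a1 (2.67), Nr4a2 (2.03) and Nr4a3 (3.51) rose on the log2 scale, as did the corepressor Nab2 (2.96) and the feedback inhibitors Dusp6 (2.49) and Spry2 (2.42). Cd69, an early activation marker, rose by 2.27 and Cd5, an inhibitory receptor whose level follows signal strength, by 2.75. Cd5 had 21.7, 21.6 and 28.4 CPM in DN3 and 150, 203, 203 and 91.9 CPM in DN4, lowest in WT48. Fos (1.31), Fosb (-0.49), Jun (-0.18), Dusp5 (0.26) and Spry1 (-0.10) did not pass, so the AP-1 genes of the list, Junb at 1.52 apart, were not among the genes that rose.

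Id3 and Id2, which encode inhibitors of E proteins, rose while the E protein genes did not pass the test over all 7 libraries. Id3 had 19.7, 36.3 and 51.1 CPM in DN3 and 138, 108, 100 and 158 CPM in DN4, a log2 fold change of 1.79 (SE 0.30, adjusted p = 0.00408 in edgeR). Id2 had 4.51, 8.09 and 7.08 CPM in DN3 and 29.7, 23.1, 23.5 and 20.5 CPM in DN4, a log2 fold change of 1.84 (SE 0.23, adjusted p = 0.00105 in edgeR). Neither gene overlapped between stages. Tcf3 (-0.14, adjusted p = 0.547), Tcf12 (-0.34, adjusted p = 0.0972) and Tcf4 (-0.46) did not pass in edgeR. However, 1 E protein gene fell without DN4 of WT05 and WT48, and 1 fell with the B cell marker share in the fit.

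In the machinery downstream of the receptor, 8 of 17 genes rose and 0 fell, against 13.4% and 9.43% of all genes, with a median of 0.53. Without DN3 of WT05 7 rose and 1 fell. Zap70, the kinase recruited to phosphorylated receptor chains, had 75.0, 74.5 and 77.2 CPM in DN3 and 169, 197, 181 and 159 CPM in DN4, a log2 fold change of 1.22 (SE 0.11, adjusted p = 2.31e-04 in edgeR). Among the others was the Src kinase Fyn (1.41). Txk, a Tec kinase gene that is not on the list and was picked after its values were seen, rose by 3.51 (SE 0.17), from 4.12 to 4.80 CPM in DN3 to 43.3 to 58.4 CPM in DN4. Lck (-0.33, adjusted p = 0.280) and Lat (-0.30, adjusted p = 0.312), which encode the kinase and the adaptor on either side of Zap70, did not pass in edgeR.

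Il2rb, the β chain shared by the IL-2 and IL-15 receptors (chromosome 15 from 78479256 to 78495271, minus strand), had 2.26, 1.79 and 2.11 CPM in DN3 and 240, 157, 134 and 161 CPM in DN4. Its log2 fold change of 6.42 (SE 0.28, adjusted p = 1.64e-05 in edgeR) stood beside -6.39 for Il2ra, the α chain, which the CD25 gate fixed. Il2rg, the common γ chain, rose by 1.05 (SE 0.20, adjusted p = 0.00666 in edgeR). Il7r, whose product sustains early thymocytes, had 99.6, 100 and 131 CPM in DN3 and 63.8, 64.8, 63.1 and 62.5 CPM in DN4, a log2 fold change of -0.79 (SE 0.12, adjusted p = 0.00243 in edgeR, 0.178 with library totals). Cish (-1.01) and Socs2 (-3.97), feedback inhibitors of cytokine signaling induced by STAT5, fell. The call of Cish was lost with library totals (adjusted p = 0.0831) and without DN4 of WT05 and WT48 (adjusted p = 0.0586), and Cish did not pass in KO-labelled mice (adjusted p = 0.0721, all edgeR). Over the list, 4 of 12 genes rose and 5 fell, against 13.4% and 9.43% of all genes, with Il2ra among those that fell. The counts were 3 and 5 without DN3 of WT05 and 3 and 2 with library totals.

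The protein-coding genes that fell furthest, ranked among those with at least 10 CPM in DN3 and no overlap between stages, were Khdc1a (-6.49), Il2ra, Sytl4 (-5.64), Erg (-5.23), Muc13 (-5.20), Scin (-4.94), Itgb4 (-4.92), Fndc1 (-4.88), Mst1r (-4.67), Bst1 (-4.58), Mpzl2 (-4.46), Grm4 (-4.38), Ctla2a (-4.18), Myl10 (-4.08) and Arhgef10l (-4.06). All 15 passed without DN3 of WT05 and in KO-labelled mice. Erg, an ETS family transcription factor gene of stem and progenitor cells (chromosome 16 from 95359169 to 95586593, minus strand), had 20.3, 24.9 and 25.3 CPM in DN3 and 0.470, 1.29, 0.523 and 0.193 CPM in DN4. Itgb4, the β4 integrin chain that binds laminin as part of α6β4, had 52.2, 83.4 and 52.1 CPM in DN3 and 1.33, 3.50, 2.02 and 1.45 CPM in DN4. Scin encodes an actin-severing protein, Mst1r a receptor tyrosine kinase and Bst1 a surface ectoenzyme related to CD38. Bst1 is overlapped on the opposite strand by Fbxl5, which had more counts than Bst1 itself, and whether strand was used in counting is not stated.

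Ranked by the difference in CPM, a scale that favors long and abundant transcripts, the 10 called protein-coding genes that moved by 1 or more on the log2 scale and that fell most were Notch1, Cdk6, Il2ra, Dntt, Fkbp5, Uck2, Notch3, Smarca4, Tmem131 and Myb. Cdk6, a G1 kinase gene, had 1964, 803 and 686 CPM in DN3 and 200, 173, 204 and 173 CPM in DN4. DN3 of WT05 was by far its highest library, and the log2 fold change of -2.62 (SE 0.34, adjusted p = 0.00132 in edgeR) was -2.0 without it, with an adjusted p of 1.21e-04. Myb, a transcription factor gene of dividing progenitors, had 612, 740 and 723 CPM in DN3 and 290, 406, 315 and 289 CPM in DN4, a log2 fold change of -1.09 (SE 0.16, adjusted p = 0.00193 in edgeR). With library totals its adjusted p was 0.0651. Fkbp5, a glucocorticoid-induced co-chaperone gene, fell by 1.17 (SE 0.14), Uck2, a pyrimidine salvage kinase gene, by 1.62 (SE 0.17), and Smarca4, the ATPase of the BAF chromatin remodeler, by 1.14 (SE 0.12).

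In the list of T lineage transcription factors 10 of 29 genes rose and 4 fell, against 13.4% and 9.43% of all genes. Without DN3 of WT05 14 rose, without DN4 of WT05 and WT48 8 rose and 2 fell, and with library totals 1 fell. Ikzf3 (2.51), Foxo1 (2.43) and Tox2 (2.03) were among those that rose. Runx1, a core factor of early T cell development, had 377, 222 and 240 CPM in DN3 and 104, 95.8, 96.6 and 108 CPM in DN4 and fell by 1.46 (SE 0.18, adjusted p = 0.00107 in edgeR). Tcf7 (0.10, adjusted p = 0.762) and Gata3 (0.04, adjusted p = 0.862), both needed for T cell commitment, did not pass in edgeR.

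Evenness across the 4 DN4 libraries differed between genes. The highest DN4 library was under 2 times the lowest for 1051 of the 1706 higher genes (61.6%) and for 977 of the 1197 lower genes (81.6%), a limit chosen after the data were seen. Among such higher genes the protein-coding ones with the largest fold changes were Gimap3, Gramd3, Nt5e, Il2rb, Cd7, Rflnb, Il6ra, Ggt1, Ephx1, Crybg1, Ccr8, Cd52, Adam19, Prr5l and Jaml, with log2 fold changes from 7.36 to 5.16. Even levels in DN4 were a condition of the choice, so fits without single DN4 libraries say little about these genes. In KO-labelled mice all 15 passed. Gimap3, a GTPase gene of lymphocytes, had 1.13, 2.13 and 0.634 CPM in DN3 and 239, 167, 182 and 327 CPM in DN4 (SE 0.44, adjusted p = 4.74e-05 in edgeR). Nt5e, which encodes the ectoenzyme CD73, had 0.282, 0.341 and 0.106 CPM in DN3 and 30.6, 20.8, 17.6 and 18.9 CPM in DN4, a log2 fold change of 6.44 (SE 0.41). Adam19, a metalloprotease gene, had no counts in DN3 of WT05 and WT48, and its log2 fold change of 5.29 became 11.36 without DN3 of WT46, a value set by the prior count.

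Gimap genes, which encode GTPases tied to lymphocyte survival and lie together on chromosome 6, all rose. The 8 tested passed, where 13.4% of all genes rose, from 0.69 for Gimap9 to 7.36 for Gimap3, with a median of 2.81. Their summed level, as a percent of the TMM-scaled library size like all summed levels below, was 0.0116% to 0.0226% in DN3 and 0.138%, 0.0980%, 0.0956% and 0.174% in DN4. WT48 and WT05 were the highest, as they were for the B cell markers given below. Of the 8 genes, 7 passed without DN3 of WT05 and 6 passed without DN4 of WT05 and WT48. With the B cell marker share in the fit 6 passed, with a median of 2.18, and 9 of the 10 B cell markers rose in that fit too. These genes are close relatives, so that reads could be shared between them.

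Most of the listed surface molecules and receptors for migration rose. Of 28 surface molecules tested 20 rose and 2 fell, against 13.4% and 9.43% of all genes. Their median was 1.83, and 17 rose without DN4 of WT05 and WT48. Cd52, a small glycoprotein of lymphocytes, had 2.54, 9.37 and 6.34 CPM in DN3 and 276, 211, 199 and 358 CPM in DN4, a log2 fold change of 5.30 (SE 0.40, adjusted p = 1.06e-04 in edgeR). Cd6 (1.80) and Cd28 (1.12), both receptors of T cells, rose too, but the call of Cd28 was lost without DN3 of WT46 (adjusted p = 0.0623) or DN3 of WT48 (adjusted p = 0.0615, both edgeR). Ctla4, an inhibitory receptor gene, fell by 2.60 (SE 0.32, adjusted p = 0.00102 in edgeR). Cd24a fell by 0.56, with an adjusted p of 0.0151 that became 0.0581 with the mouse as a block in edgeR and 0.0673 or 0.0563 without DN3 of WT46 or of WT48.

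Among 11 chemokine and sphingosine phosphate receptors 9 rose, S1pr2 had a log2 fold change of -0.52 and Cxcr4 had a log2 fold change of 0.09 (adjusted p = 0.823 in edgeR). The adjusted p of S1pr2 was 0.0242, and its call was lost with the mouse as a block (0.0695), with library totals (0.583) and without DN4 of WT05 and WT48 (0.110), all in edgeR. Ccr7, the receptor that guides lymphocytes to lymph nodes and thymocytes to the medulla, had 5.08, 2.30 and 2.85 CPM in DN3 and 79.7, 82.4, 67.9 and 89.9 CPM in DN4, a log2 fold change of 4.68 (SE 0.26, adjusted p = 3.38e-05 in edgeR). S1pr1, the receptor that lymphocytes use to leave tissues, had 1.13, 1.28 and 0.211 CPM in DN3 and 112, 78.2, 81.5 and 173 CPM in DN4, and Klf2, the factor that drives S1pr1, rose by 4.98. Ccr9, the receptor for the thymic chemokine CCL25 and a gene that Lztfl1 overlaps, rose by 1.70 (SE 0.31, adjusted p = 0.00542 in edgeR). The integrin chains Itgb7 (4.61) and Itgae (3.55, with Haspin on the opposite strand) rose, Itgb4 fell as given above, and 6 of the 10 integrins listed rose and 2 fell, of which 1 fell without DN3 of WT05. S1pr1, Klf2 and Ccr7 were also among the 7 listed markers of mature single positive T cells, of which 5 rose. The summed level of these markers was 0.0378% to 0.0669% in DN3 and 0.0652% to 0.133% in DN4, and Foxp3 (1.71) was among those that did not pass. In DN4, S1pr1 and Klf2 were highest in WT48 and WT05, as were the B cell markers given below, and Ccr7 was highest in WT48 and WT40. Whether mature T cells or other cells in the sort had a part in these results was not tested.

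Of 11 listed genes of the ISP and DP stages 9 rose, Arpp21 fell and Themis (-0.20) did not pass, with a median of 2.41. Cd8a, a chain of the CD8 coreceptor, had 22.9, 22.7 and 10.9 CPM in DN3 and 224, 714, 517 and 74.7 CPM in DN4, a log2 fold change of 4.36 (SE 0.78, adjusted p = 0.00537 in edgeR). Its level in DN4 was highest in WT40 and lowest in WT48, as were those of Cd8b1 (3.69) and Trac. Trac, the constant segment of the T cell receptor α chain, had 5.92, 5.88 and 6.98 CPM in DN3 and 158, 266, 226 and 65.6 CPM in DN4, with a log2 fold change of 4.83 (SE 0.50, adjusted p = 4.35e-04 in edgeR). Cd4 rose by 4.13 (SE 0.96, adjusted p = 0.0161 in edgeR), from 3.49 to 6.21 CPM in DN3 to 41.7, 235, 44.6 and 17.7 CPM in DN4. Its call was lost without DN3 of WT46 (adjusted p = 0.0602) or WT48 (adjusted p = 0.0661) and in limma-voom (adjusted p = 0.101), and with the mouse as a block its log2 fold change was 2.74.

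The receptor loci themselves gave uneven evidence, since most segments had few counts. Of 108 Tcra V segments 83 had too few counts to be tested, and a segment could enter the test through its DN4 counts alone, so the count of the other 25 describes those segments only. Of these 21 rose and 0 fell, or 20 and 2 without DN3 of WT05, with a median log2 fold change of 3.20 that ranged from 1.83 to 3.40 over fits lacking 1 library each, the lowest without DN4 of WT40. The median was 1.32 over the segments with at least 10 counts in every library and 1.87 with the mouse as a block. Their summed level was 0.00200% to 0.00292% in DN3 and 0.00654% to 0.0106% in DN4. None of the 51 Tcra J segments had enough counts to be tested. In Tcrb, 7 of 21 V segments rose and 0 fell, with a median of 0.91, and 4 rose without DN3 of WT05 and 16 without DN4 of WT05 and WT48. Of 12 Tcrg segments 5 fell and 0 rose, with 7 falling without DN3 of WT05 and 8 without DN4 of WT05 and WT48. Those that fell included the constant segments Tcrg-C1 (-1.34), Tcrg-C2 (-1.45) and Tcrg-C3 (-2.20). Trdc, the constant segment of the δ chain, rose by 0.77. V segments resemble each other, so that counts of single segments are uncertain.

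**Figure D3:**
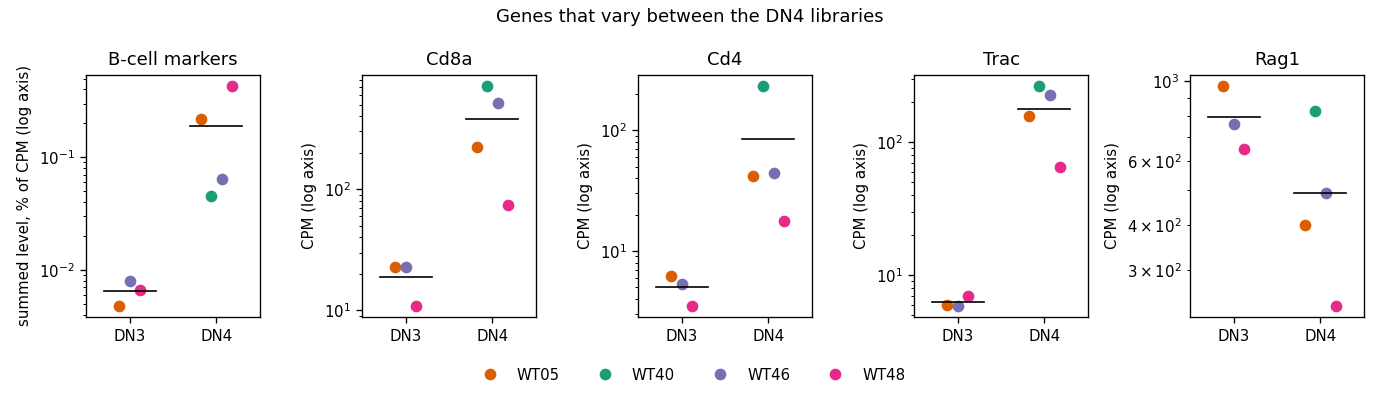
Levels in the 3 DN3 and 4 DN4 libraries of Wt mice, colored by mouse with the mean as a bar, for the summed level of 10 B cell markers (percent of the TMM-scaled library size, log axis) and for Cd8a, Cd4, Trac and Rag1 (CPM, log axis). In DN4, WT48 had the highest level of B cell markers and the lowest of the other 4 genes, and WT40 had the reverse.

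Listed B cell markers were higher in every DN4 library than in any DN3 library when summed. All 10 B cell markers rose, where 13.4% of all genes did, with a median log2 fold change of 6.72. Markers near 0 in DN3 could enter the test through their DN4 counts alone, so the count of those that rose is no test of the list. They summed to 0.00480%, 0.00795% and 0.00666% in DN3 and to 0.217%, 0.0454%, 0.0646% and 0.431% in DN4, so that the DN4 libraries lay 27.4, 5.71, 8.13 and 54.2 times above the highest DN3 library. Ms4a1, which encodes CD20, had 1.13, 0.341 and 1.16 CPM in DN3 and 257, 47.2, 63.0 and 402 CPM in DN4. Of the 10, 9 rose without DN3 of WT05, and without DN4 of WT05 and WT48 8 of the 10 rose, with a median of 4.89.

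The protein-coding genes that rose most, with at least 10 CPM in DN4 and no overlap between stages, were March1, Trpm1, Rasgrp3, Pxdc1, Cd22, Fcmr, H2-Eb1, Cd74, H2-Aa, Ccr6, Fcer2a, Zbtb7b, Bcar3, Cr2 and Cd83. Cd22, Fcmr, Fcer2a and Cr2 encode receptors of B cells, and H2-Eb1, H2-Aa and Cd74 belong to MHC class II presentation. For 14 of the 15, the level in DN4 of WT48 exceeded that of WT40 at least 2.82 times, the lowest such ratio among the B cell markers, as it did for 328 of the 1706 higher genes (19.2%), for 24 of the 1197 lower genes (2.01%) and for 595 of all genes tested (4.69%). The B cell markers, Cd22 and Fcer2a among them, meet this ratio by construction. Cd74 had 2.26, 1.96 and 9.41 CPM in DN3 and 1590, 327, 432 and 3411 CPM in DN4. March1, a ubiquitin ligase gene that controls MHC class II turnover, was counted in no DN3 library and had 44.6, 6.08, 10.5 and 67.2 CPM in DN4. Its DN4 mean was at least 67.9-fold higher when 3 counts per DN3 library are taken as the limit of detection, a bound on the mean and not on each library. The exception to the ratio was Trpm1, a cation channel gene, at 0 in DN3 and at 47.5, 27.4, 27.8 and 17.1 CPM in DN4, with a DN4 mean at least 63.3-fold higher.

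All 15 passed in edgeR without DN3 of WT05, without DN4 of WT05 and WT48 and in a fit that included the share of B cell markers, with Cd22 and Fcer2a themselves among those markers. Fold changes other than that of Trpm1 were smaller in the latter 2 fits, as for Cd22 (8.60, then 6.51 and 6.19 on the log2 scale) and March1 (11.37, then 9.35 and 9.34). In the fit with the marker share 9 of the 10 B cell markers still rose, with a median of 4.64, so passing it does not set a gene apart from them. Among the 15, limma-voom did not call 11, such as Cd22 (adjusted p = 0.107) and March1 (adjusted p = 0.0988). Pxdc1 was also lost in edgeR without DN3 of WT48 (adjusted p = 0.0525). Other marker lists moved as well. Of 10 NK cell and ILC markers 8 were tested and 6 rose, from a summed 0.0233% to 0.0282% in DN3 to 0.0348% to 0.0459% in DN4, and Ncr1 and Klrk1 had too few counts to be tested. Of the 10, 4 were at 0 in every DN3 library, and such genes could enter the test only through their DN4 counts. Prf1, the perforin gene, had 0.282, 0.341 and 0.317 CPM in DN3 and 9.01, 11.8, 9.64 and 15.3 CPM in DN4. Of 10 myeloid markers 3 were tested, 2 rising and Lyz2 falling, and of 9 progenitor genes tested 6 rose (4 without DN3 of WT05), among them Spi1 (3.43), Mef2c (4.28) and Lmo2 (6.45), which B cells also express. Erg (-5.23) of that list fell, Kit (-0.60) and Bcl11a (2.44) did not pass, and without DN4 of WT05 and WT48 4 rose and 2 fell. Of 7 erythroid markers 1 was tested and rose, but 0 passed without DN4 of WT05 and WT48 or with the B cell marker share in the fit. Summed levels of the 7 overlapped between stages, at 0 to 2.43e-04% in DN3 and 1.47e-04% to 5.98e-04% in DN4. Of 5 markers of plasmacytoid dendritic cells 3 were tested and 2 rose. In each of these lists, genes near 0 in DN3 could enter the test through their DN4 counts alone. The part of other cells in the DN4 sort in these results was not tested.

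By the same ranking on the difference in CPM, the 10 genes that rose most under the same conditions were Cd74, Tmsb4x, Shisa5, H2-K1, H2-Aa, Msn, Laptm5, H2-Ab1, Flna and H2-Eb1. Tmsb4x, which encodes the actin-binding peptide thymosin β4, had 155, 252 and 256 CPM in DN3 and 1185, 870, 845 and 1207 CPM in DN4, a log2 fold change of 2.21 (SE 0.24, adjusted p = 5.18e-04 in edgeR). Msn, encoding moesin, which links actin to the membrane, had 286, 269 and 302 CPM in DN3 and 924, 725, 697 and 966 CPM in DN4, and Flna, encoding the actin crosslinker filamin A, rose by 1.55 (SE 0.26). Laptm5, a lysosomal protein gene that lowers surface receptor levels, rose by 1.41 (SE 0.19, adjusted p = 0.00141 in edgeR), with 702 to 887 CPM in the DN4 libraries. The class I gene H2-K1 rose by 1.14 with an adjusted p of 0.0441, which became 0.0938 without DN3 of WT05 and 0.198 without DN4 of WT05 and WT48.

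Several lists of growth genes had members that fell and few or none that rose. Of 36 genes of Myc and ribosome biogenesis 21 fell and 0 rose, against 9.43% and 13.4% of all genes, with a median of -0.48. Myc had 291, 376 and 459 CPM in DN3 and 142, 199, 211 and 207 CPM in DN4, a log2 fold change of -0.98 (SE 0.19, adjusted p = 0.00755 in edgeR, 0.122 with library totals). For nucleotide and one-carbon synthesis 8 of 16 genes fell (median -0.43) and for cholesterol synthesis 9 of 18 (median -0.47). The counts of these 3 lists depended on the scaling and the libraries. With library totals 1, 0 and 1 genes fell, with medians of -0.29, -0.24 and -0.30 where all genes had 0.16, and without DN4 of WT05 and WT48 8, 1 and 2 fell.

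DNA replication genes (40 tested) had a median of -0.17 with 1 lower and 0 higher, and mitosis genes (42 tested) of 0.05 with 2 higher, Cdc25b and Cenpa, and 0 lower. Without DN3 of WT05 and DN4 of WT05 and WT48, which leaves 2 libraries a stage, the median of the mitosis genes was 0.42 and 32 of 42 rose, in a fit in which 2481 genes rose in all. Without DN3 of WT05 alone 2 of the 42 rose, and without only the DN4 libraries of WT05 and WT48 0 rose. Mki67, a gene expressed in cycling cells, had 1978, 466 and 503 CPM in DN3 and 604, 574, 739 and 413 CPM in DN4, a log2 fold change of -0.75 (SE 0.49, adjusted p = 0.312 in edgeR) that was 0.26 without DN3 of WT05 and 0.44 (adjusted p = 0.0114) with 2 libraries a stage. Cdkn1a, the inhibitor p21, fell by 2.12 (SE 0.27, adjusted p = 0.00114 in edgeR), while Cdkn1b, the inhibitor p27, rose by 1.02 (SE 0.15, adjusted p = 0.00212 in edgeR) and Rbl2, a relative of the retinoblastoma gene that Aktip overlaps, by 0.93 (SE 0.14). The cyclins Ccnd2 (-0.00, adjusted p = 0.990) and Ccnd3 (0.46, adjusted p = 0.149) did not pass in edgeR. Ccnd3 passed without DN4 of WT05 and WT48 (0.74, adjusted p = 0.0269) and with the B cell marker share in the fit (0.76, adjusted p = 0.0218, both edgeR). In KO-labelled mice Ccnd3 was 0.86 (adjusted p = 0.0117) and Ccnd2 -0.66 (adjusted p = 0.0105) in edgeR.

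Of 12 BCL2 family genes tested, Mcl1, a survival gene, rose by 0.91 (SE 0.18), Bbc3, which encodes the death-promoting PUMA, by 1.36 (SE 0.26), and Bcl2a1b was the third. With DN3 of WT05 left out, 5 rose. Bcl2 had a log2 fold change of -0.01 (adjusted p = 0.985 in edgeR). Of 23 genes of glycolysis and lactate 5 rose and 2 fell, where 13.4% of all genes rose and 9.43% fell. The lactate exporter Slc16a3 was at 3.93 and the hexokinase Hk2 at -1.21. None of 78 nuclear genes of oxidative phosphorylation passed, with a median of -0.03, and none of 77 cytosolic ribosomal protein genes, with a median of 0.01. Without DN3 of WT05 the medians were -0.15 for both lists and 4 genes of each fell. Of 74 mitochondrial ribosomal protein genes 3 fell, and 13 without that library. In the other lists, 5 of 10 sialyltransferases, 3 of 15 interferon-stimulated genes and 4 of 10 genes of MHC class I presentation rose and 0 fell, and 4 of 8 γδ T cell markers rose and 2 fell. Without DN4 of WT05 and WT48 1 interferon-stimulated gene and 1 class I gene rose, and without DN3 of WT05 1 and 2 rose and 1 interferon-stimulated gene fell. Of 6 Tcrd segments tested 4 rose, 3 without DN3 of WT05 and 2 without DN4 of WT05 and WT48. Of 3 thymic stroma markers tested Epcam fell.

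**Figure D4:**
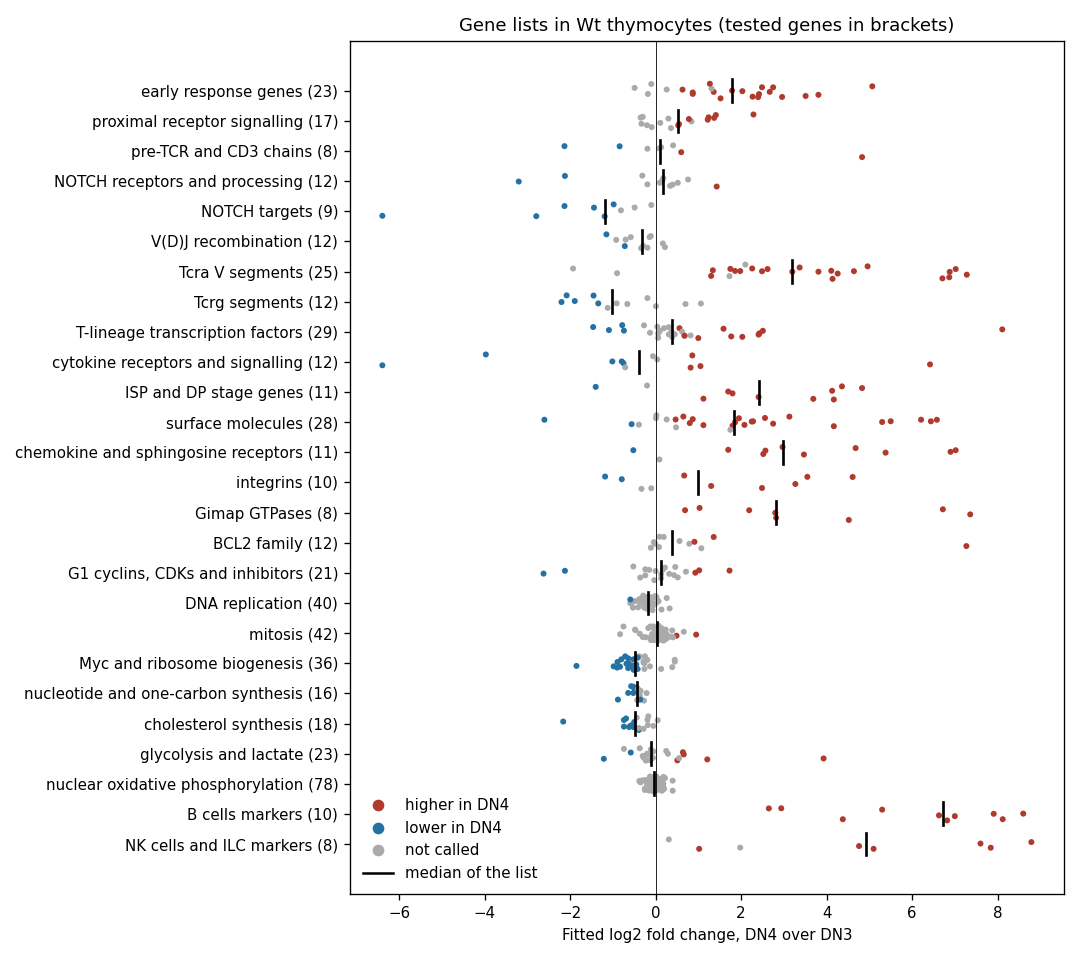
Each row is a gene list, with the number of genes tested in brackets, and each point is a gene placed by its fitted log2 fold change of DN4 over DN3 in Wt thymocytes. Red and blue points passed the test as higher or lower in DN4, gray points did not, and the black bar is the median, which is 1.79 for early response genes, 2.81 for Gimap GTPases, -0.48 for Myc and ribosome biogenesis and -0.03 for nuclear oxidative phosphorylation.

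Leaving out the DN3 library of WT05 raised the number of calls to 3393, with 1890 higher and 1503 lower. Of the genes called with all libraries, 1516 of 1706 higher and 1084 of 1197 lower genes were called again in the same direction, and 793 genes were called only without it. The gene that changed sign was Gm26917, a ribosomal RNA-like transcript, at -6.51 with and 0.76 without the library. It was 96709 CPM in DN3 of WT05 and 135 to 695 CPM in the others. Genes whose level moved with this library included the replication-dependent histones, whose transcripts lack poly(A) tails. Their median over 28 tested was -1.99 with it and 0.01 without it, and they took 0.0895% of its TMM-scaled size against 0.00752% to 0.0101% elsewhere. The median of 10 mtDNA-encoded genes was -0.38 with it and 0.29 without it, with 0 genes called in either case.

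**Figure D5:**
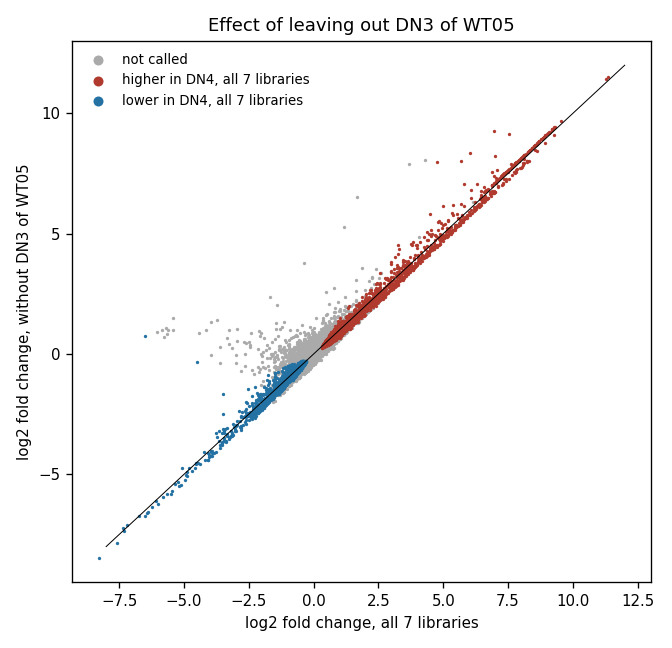
Each point is a gene, with the log2 fold change of DN4 over DN3 from all 7 Wt libraries on x and that without the DN3 library of WT05 on y, and the line marks equal values. Red (higher) and blue (lower) genes called with all 7 libraries lie along the line with 1 exception of opposite sign, Gm26917, while a band of gray points below 0 on x lies near 0 on y.

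In the KO-labelled mice 2338 of 12580 genes (18.6%) passed in the same comparison, and 4499 with the mouse as a block. In these mice Opa1, a GTPase gene of mitochondrial inner membrane fusion, is flanked by loxP sites, and its level was 96.8 ± 2.20 CPM in DN3 and 86.3 ± 6.45 CPM in DN4 (SD, n = 3 each) against 94.6 ± 11.4 CPM (SD, n = 3) and 84.2 ± 3.39 CPM (SD, n = 4) in Wt mice, each genotype scaled on its own. Counts over the whole gene do not show whether a part of it was deleted. Of the 1706 genes higher in Wt DN4, 1559 were tested there, 1549 had the same sign and 1078 (69.1%) were called in the same direction. Of the 1197 lower genes 1181 were tested, 1171 had the same sign and 604 (51.1%) were called in the same direction. With the mouse as a block in the KO-labelled mice, 1355 of the higher and 969 of the lower genes were called in the same direction. In the fit without the block, no gene of either group was called in the opposite direction. Over all 12327 genes tested in both, 78.2% had the same sign. Whether single genes differed in their change between the genotypes was not tested.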

How the data were processed

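RNA was measured in sorted DN3 and DN4 thymocytes of 7 Wt;Lck-Cre+ libraries, with 6 KO-labelled libraries beside them. The authors deposited 1 table of raw counts per gene, made by alignment with STAR to mm10 and counting with featureCounts after adapter trimming, and used DESeq2, per the labels and methods. Tool versions and the strand setting of the counting are not given in the sources used here. The table's gene IDs were matched without version to GENCODE M21 (47310 of 47937) and lists were matched by symbol. No columns were left out.

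Groups came from the sample titles. DN4 was compared with DN3 within each genotype by edgeR 4.0.16 (R 4.3.3), with filterByExpr at a minimum count of 10, TMM scaling, the quasi-likelihood test and Benjamini-Hochberg adjustment at 0.05. This kept 12691 genes. Log2 fold changes are given with their standard error. Alternatives used DESeq2 1.42.0, limma 3.58.1 (voom), other filters and scalings, the mouse as a block, and each library left out. Those with a B cell marker covariate, without DN4 of WT05 and WT48, or without these and DN3 of WT05 were added after seeing the data. The scripts were tested on simulated data.

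Named genes were the 15 protein-coding genes per direction with the largest fold change among called genes without overlap and with at least 10 CPM in the higher stage, and the 10 called protein-coding genes per direction with the largest difference in CPM among those that moved by 1 or more on the log2 scale. Further genes come from the 47 lists or were chosen after their values were seen. The libraries, members and lists were chosen with earlier results of these data known. Library names pair the stages of a mouse: deviations from the stage means correlated at 0.23, 0.13 and 0.20 within a mouse and at -0.25 to 0.03 between mice, across genes. The p-values measure the spread between the mice of a group. Levels at 3 counts or fewer were read as a limit of detection, which covers counting error only. No pair of libraries of a stage agreed within counting noise (lowest chi-square per degree of freedom 7.01). Results of a few genes are not reported here.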

Additional observations from a re-analysis of the deposited data

Results flagged for a closer look

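For 6 of 142 genes examined, 1 of the 4 DN4 libraries lay far from the other 3 relative to their range, and chance alone marks about 1 in 20 such groups. WT48 was the highest for Il2ra (14.3 CPM), Il2rg (260 CPM) and Gata3 (130 CPM), and the lowest for Cd28 (108 CPM). WT40 was the highest for Cd4 (235 CPM) and WT05 for Ccnd2 (283 CPM). Of these genes, Il2ra, Il2rg, Cd28 and Cd4 passed the test between stages, and Gata3 and Ccnd2 did not.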

How the results depend on the processing

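The number of genes called between the Wt stages, 2903 (1706 higher, 1197 lower), was within 1.5 times under other tools (3633 in the DESeq2 Wald test, 2708 in limma-voom), and other settings moved it or its split. With at least 10 counts required in every library 1074 genes were higher, with library totals 1782 were called and 396 lower, with the B cell markers as a covariate 770 were lower, and with a log2 fold change of at least 1 required 1724 were called and 551 lower. Without DN4 of WT05 and WT48 there were 1766 calls (1104 higher, 662 lower), and without DN3 of WT05 as well 4563 (2082 lower). Leaving out 1 library at a time gave 1845 to 3393 calls, 1117 to 1890 higher and 718 to 1503 lower, lowest in total without DN4 of WT05. With the mouse as a replicate block 2340 genes were called (1522 higher, 818 lower). Among KO-labelled libraries the replicate block gave 4499 (2378 higher, 2121 lower) against 2338, and leaving out 1 library gave 1407 to 2790 calls, 837 to 1745 higher and 547 to 1045 lower. Of 122 named genes called, 17 were lost with library totals, 14 in limma-voom, 5 with the block, 16 without DN4 of WT05 and WT48, 2 without DN3 of WT05 and 0 in the DESeq2 Wald test. None of these 122 changed direction. Mki67, not called, turned to 0.44 without DN3 of WT05 and DN4 of WT05 and WT48. Of 43 list medians 6 moved by more than the spread between replicates without DN3 of WT05, and 16 without DN4 of WT05 and WT48. The causes were not tested. The 3886049 counts outside ribosomal RNA-like genes in DN3 of WT05 limit what can be read of low genes there.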
